A study of Rattus norvegicus with 325 samples.

Results

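Adipocyte marker genes are transcripts that fat cells make in quantity and muscle fibres make little of, and 6 of them were followed here in ageing rat muscle: Plin1, Cidec, Fabp4, Adipoq, Lep and Cfd. They were chosen by name from knowledge of fat cells and not by a rule on their counts, but with earlier results of these data known. They are 6 of the 17315 gene symbols listed in the count table. The samples were 4 muscles of male Sprague Dawley rats, an outbred strain: the diaphragm, which drives breathing, and 3 muscles of the hind limb, the gastrocnemius, the soleus and the tibialis anterior. Each was taken at 7 ages (6, 9 and 12 months, 18 and 21 months, and 24 and 27 months), which gave 28 groups of 9 to 13 libraries, with 83 libraries of diaphragm, 73 of gastrocnemius, 84 of soleus and 85 of tibialis anterior in all. No group received a drug or carried an altered gene, and all rats were kept under specific pathogen free conditions with food and water at will. Each library came from a separate animal within its muscle, but the labels do not tie the 4 muscles of 1 rat together. All tissue of an age was collected on the same day, so age and collection day cannot be told apart.

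Mature fat cells store triglyceride in a single large droplet whose surface proteins control how it grows and when it is broken down. Perilipin 1 (Plin1) coats that droplet and gates the access of lipases, CIDEC (Cidec, also called FSP27) lets droplets fuse and enlarge, and the fatty acid binding protein FABP4 carries fatty acids in the cytosol. The other members are secreted: adiponectin (Adipoq) acts on liver and muscle, leptin (Lep) reports the size of the fat stores to the brain, and adipsin (Cfd) is complement factor D, the protease that starts the alternative complement pathway. Fat cells lie between the fibres and bundles of skeletal muscle, and such intermuscular fat is known to accumulate with age, inactivity and injury. FABP4 is also made by the endothelium of small vessels and by macrophages.

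The libraries held 17.6 to 85.3 M counted fragments, with a median of 31.9 M (M, 1000000). Levels are given as CPM, counts per 1000000 counts of the library after scaling all libraries to each other by the trimmed mean of M-values (TMM), and they were not divided by transcript length, so they are compared between samples of 1 gene and not between genes. The muscle labels were checked with myosin heavy chains. Myh7, the slow isoform, ranged from 17823 to 66301 CPM in soleus and from 187 to 5861 CPM in tibialis anterior, whereas Myh4, the fastest isoform, reached 314 CPM at most in soleus and was at least 10273 CPM in gastrocnemius and tibialis anterior. All 6 members passed the filter on low counts in all 4 muscles. Lep was the sparsest, with a median of 11.5 counts per library in tibialis anterior at 6 months and 5 counts in the lowest library.

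A pair of diaphragm libraries stood apart by their Ucp1, and fits without them were added to the planned ones. The 6-month library numbered 0 in the labels held 130 CPM of Ucp1, the thermogenic uncoupling protein of brown fat cells, and the 9-month library numbered 3 held 14.1 CPM. The other 81 diaphragm libraries reached 0.520 CPM at most, and 77 of 83 had no Ucp1 count. The 6-month library also had the highest level of any diaphragm library for Adipoq (204 CPM), Plin1 (108 CPM), Cidec (82.0 CPM) and Fabp4 (64.7 CPM). Diaphragm values of the members are therefore given with and without this pair of libraries in several comparisons. Values for all other genes in diaphragm come only from fits that included the pair, so how far they depend on it was not tested. How each piece of muscle was trimmed of surrounding fat is not given in the sources used here. Sample numbers in the labels fall into 3 series. Every 12-month library and 1 library of 21 months in diaphragm, soleus and tibialis anterior belong to a series apart from the rest of the muscle, so at 12 months that series and age cannot be told apart. All gastrocnemius libraries belong to a series that no other muscle shares, so in every comparison of gastrocnemius with another muscle, muscle and series cannot be told apart.

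Sequence from RefSeq ahead of the annotated gene start is shown for Adipoq, Plin1 and Lep. Cfd also had such a sequence, of 250 bases with no match to the motifs below, which is not printed. The table of promoters matched 5 of the 6 members, in assembly GRCr8, which is a later build than the one the authors aligned to. The letters below run 5′ to 3′ on the gene's own strand and end at the base before the annotated gene start. They are Adipoq at chr11:91240245-91240419, minus strand, Plin1 at chr1:143086200-143086398, minus strand, and Lep at chr4:58626288-58626528, plus strand. Capitals mark 3 motifs, searched on both strands. CCAAT is the core of a common promoter box and reads ATTGG when it lies on the other strand. TATAA is the core that places the start of transcription in some promoters. TTGCNCAA, in which N stands for any base, is a form of the site bound by C/EBP factors.
Adipoq: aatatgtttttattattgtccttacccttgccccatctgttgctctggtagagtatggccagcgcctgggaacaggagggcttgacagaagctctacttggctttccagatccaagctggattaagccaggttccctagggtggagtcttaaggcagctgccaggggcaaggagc
Plin1: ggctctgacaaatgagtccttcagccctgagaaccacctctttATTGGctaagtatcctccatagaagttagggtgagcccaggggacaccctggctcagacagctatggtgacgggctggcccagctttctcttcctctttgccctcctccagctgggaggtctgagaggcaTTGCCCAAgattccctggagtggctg
Lep: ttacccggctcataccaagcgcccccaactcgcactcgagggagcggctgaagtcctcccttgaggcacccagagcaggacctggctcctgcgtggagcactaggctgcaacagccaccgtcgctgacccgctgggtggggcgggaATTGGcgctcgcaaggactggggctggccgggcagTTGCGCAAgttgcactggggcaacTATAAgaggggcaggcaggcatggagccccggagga
Plin1 held a CCAAT whose first base lay 156 bases before the start and a TTGCNCAA at 26 bases. Lep held a CCAAT at 95 bases, a TTGCNCAA at 60 bases and a TATAA at 36 bases. In the whole 250-base window of the table, part of which lies inside the annotated gene for all matched members but Cfd, TTGCNCAA was found for 3 of the 5 matched members (Plin1, Lep and Cidec) against 2.29% of 33469 promoters, CCAAT for 3 of 5 (Adipoq, Plin1 and Lep) against 34.0%, and TATAA for 1 of 5 (Lep) against 24.0%. AGGTCA, the core of many nuclear receptor sites, was found for 0 of 5 against 14.1%. No motif overlapped another in the printed letters, and a match is a run of letters and not a measured binding site.

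The muscles of young rats already differed widely in these genes. At 6 months Adipoq was at 16.6 to 204 CPM in diaphragm (median 69.5, n = 12), 16.0 to 94.5 in soleus (median 54.9, n = 12), 4.59 to 23.9 in gastrocnemius (median 7.84, n = 10) and 3.08 to 14.7 in tibialis anterior (median 4.79, n = 12). Diaphragm and soleus overlapped almost wholly, and both medians lay above every library of the fast-fibre muscles. Leptin was also higher in these muscles, with medians of 4.29 CPM in diaphragm and 6.11 CPM in soleus against 0.598 CPM in gastrocnemius and 0.395 CPM in tibialis anterior. For Fabp4 the 6-month medians ran only from 19.4 CPM in soleus to 31.8 CPM in gastrocnemius.

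These differences were tested in 1 limma-voom fit of the 28 groups, with a gene called when its adjusted p (Benjamini-Hochberg over all genes tested) was below 0.05 and its change was over 1.5-fold. Adipoq was lower in gastrocnemius than in diaphragm by a log2 difference of -2.76 ± 0.27 (SE, as after every ± here, adjusted p = 5.64e-20) and lower in tibialis anterior by -3.28 ± 0.29 (adjusted p = 3.02e-24). Between gastrocnemius and diaphragm 4 members were called lower at 6 months (Adipoq, Plin1, Cidec and Lep), where 20.8% of the 12784 genes tested were. Between tibialis anterior and diaphragm 5 were called lower, where 22.4% of genes were, and Fabp4 at -0.37 was below the fold limit. Against soleus, tibialis anterior was lower in 5 members (24.1% of genes), and soleus was higher than gastrocnemius in 5 members (24.1%) and lower in Fabp4 alone, by -0.69 ± 0.11 (adjusted p = 6.15e-10, 21.3% of genes lower). Cfd set the fast muscles apart, being lower in tibialis anterior than in gastrocnemius by -1.23 ± 0.26 (adjusted p = 1.52e-05), the only member called in that pair, where 10.7% of genes were lower.

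Neighbours in the order of muscles were closer. Between soleus and diaphragm at 6 months the differences were -0.11 ± 0.20 for Adipoq, -0.10 ± 0.20 for Plin1, 0.50 ± 0.26 for Lep, 0.37 ± 0.18 for Cfd and -0.58 ± 0.10 for Fabp4, none of them called, and Cidec alone was lower in soleus (-0.69 ± 0.19, adjusted p = 9.29e-04, 13.7% of genes lower). Without the diaphragm libraries with Ucp1, Cidec came to -0.42 and was not called, Lep came to 0.65 and was called (adjusted p = 0.0329), and Adipoq and Plin1 changed sign to 0.07 and 0.17. Between tibialis anterior and gastrocnemius, Adipoq, Plin1, Cidec and Lep differed by -0.53 to -0.05 with none called, and the 95% interval for Adipoq ran from -1.20 to 0.14. The animals shared between muscles were not known to this fit, which treated all libraries as independent.

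**Figure D1:**
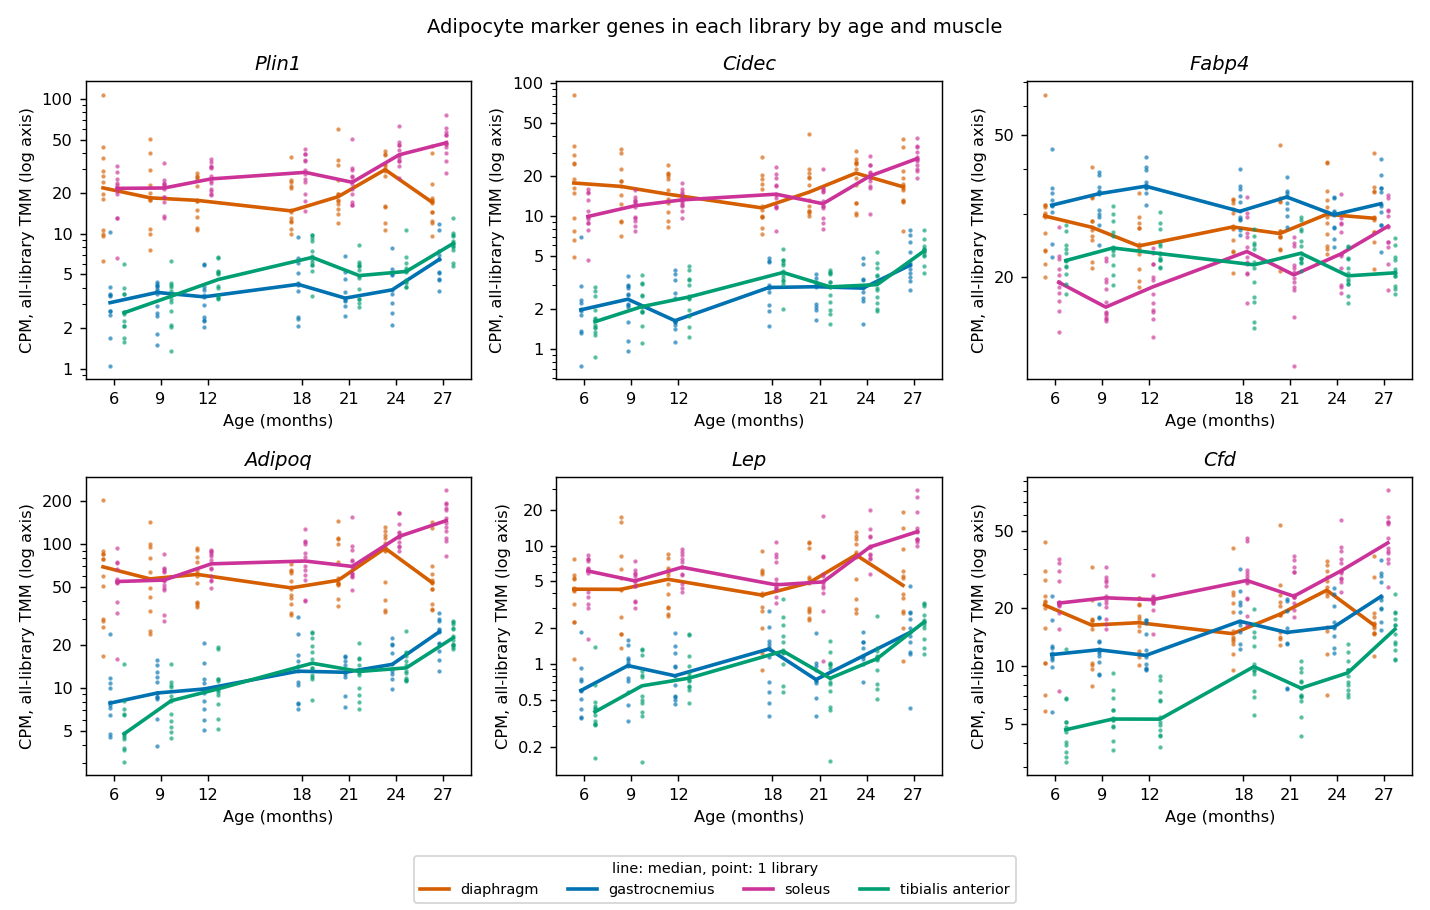
Level of each member in every library (points, CPM on a log axis) by age in months on the x axis, with a line through the group medians of each muscle. Adipoq medians climb from 4.79 to 22.3 CPM in tibialis anterior and from 54.9 to 146 CPM in soleus, diaphragm shows no steady trend, and the medians of Fabp4 stay between 16.5 and 35.9 CPM.

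At 27 months the RNA of the droplet proteins, Plin1 and Cidec, was called higher than at 6 months in the 3 limb muscles and not in the diaphragm. Plin1 in tibialis anterior went from 1.59 to 5.93 CPM (median 2.60) at 6 months to 5.76 to 13.0 CPM (median 8.49) at 27 months, a 3.04-fold rise (log2 1.60 ± 0.19, adjusted p = 8.67e-12). Of the 12 old libraries 11 lay above the highest young library. Plin1 in soleus went from a median of 21.7 CPM (6.66 to 31.6) to 47.3 CPM (28.1 to 75.8), a rise of 1.30 ± 0.17 (adjusted p = 3.35e-10), with 11 of 12 old libraries above all young ones. In gastrocnemius it rose by 1.13 ± 0.25 (adjusted p = 8.14e-05), from a median of 3.09 CPM (1.05 to 10.2) to 6.46 CPM (3.79 to 11.8). There the ranges overlapped, 2 of 11 old libraries lying above the highest young one, although all 11 lay above the young median.

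Cidec separated the ages without overlap in soleus and tibialis anterior. In tibialis anterior it ranged from 0.874 to 2.92 CPM at 6 months and from 3.74 to 7.80 CPM at 27 months (1.65 ± 0.19, adjusted p = 1.33e-12), and in soleus from 4.63 to 15.9 CPM and from 19.4 to 38.7 CPM (1.41 ± 0.15, adjusted p = 1.20e-13). In both muscles the lowest old library was above the highest young one. In gastrocnemius the medians were 1.96 and 4.26 CPM (1.23 ± 0.24, adjusted p = 8.09e-06), and the ranges overlapped, with 1 young library at 6.94 CPM.

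Fabp4 behaved differently from the other members. In gastrocnemius it ranged from 22.7 to 45.7 CPM at 6 months (median 31.8) and from 23.5 to 42.7 CPM at 27 months (median 32.1). The groups overlapped over nearly their whole range, and the difference was 0.05 ± 0.09 (95% interval from the SE, -0.12 to 0.23, adjusted p = 0.635). In tibialis anterior its medians were 22.3 and 20.6 CPM (-0.10 ± 0.08, interval -0.26 to 0.07, adjusted p = 0.288). In soleus they were 19.4 and 27.7 CPM, a difference of 0.48 ± 0.10 (adjusted p = 5.01e-05) that was 1.40-fold and so below the fold limit, and 11 of 12 old libraries lay above the young median there. With total-count scaling the difference was 0.63 and was called.

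Among the secreted members, Adipoq rose in all 3 limb muscles. In tibialis anterior it ranged from 3.08 to 14.7 CPM at 6 months (median 4.79) and from 18.6 to 29.3 CPM at 27 months (median 22.3), with no overlap. The rise was 4.03-fold (2.01 ± 0.20, adjusted p = 6.80e-15). In soleus the median went from 54.9 to 146 CPM, the old libraries spanning 82.4 to 236 CPM (1.49 ± 0.18, adjusted p = 3.85e-11), and 11 of 12 lay above all young ones. In gastrocnemius it went from 7.84 to 24.5 CPM (1.44 ± 0.23, adjusted p = 1.99e-07), with 6 of 11 old libraries (13.1 to 33.0 CPM) above the highest young one at 23.9 CPM.

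Lep had the largest fitted rise of the 6 members in each limb muscle, though the difference from the others was not tested, and also the widest spread. In tibialis anterior it ranged from 0.162 to 1.39 CPM at 6 months (median 0.395) and from 1.22 to 3.29 CPM at 27 months (median 2.27), a 4.93-fold rise (2.30 ± 0.31, adjusted p = 3.91e-10). The groups overlapped in few libraries, with 10 of 12 old ones above all young ones. In soleus all 12 old libraries (9.86 to 29.2 CPM, median 13.1) lay above the young ones (1.64 to 8.33 CPM, median 6.11), and the rise was 1.52 ± 0.21 (adjusted p = 4.68e-09). In gastrocnemius the rise was 1.54 ± 0.31 (adjusted p = 1.79e-05) between medians of 0.598 and 1.85 CPM. The old gastrocnemius libraries spread from 0.421 to 4.54 CPM, so that 1 of 11 lay below the young median.

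Cfd rose by 1.58 ± 0.17 in tibialis anterior (adjusted p = 1.07e-13), where the median went from 4.68 CPM (3.20 to 12.2) to 15.5 CPM (10.7 to 23.6). The rise was 1.08 ± 0.16 in soleus (adjusted p = 7.66e-09), from 21.1 CPM (7.45 to 35.6) to 43.2 CPM (25.4 to 80.6). In gastrocnemius it was 0.96 ± 0.18 (adjusted p = 2.80e-06), from 11.4 CPM (5.80 to 23.1) to 22.8 CPM (15.3 to 35.0). In each of the 3 muscles the ranges overlapped and every old library was above the young median.

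In all, 5 of 6 members were called higher at 27 months in gastrocnemius, where 15.1% of 11865 genes were, 5 of 6 in soleus, where 9.21% of 12175 genes were, and 5 of 6 in tibialis anterior, where 17.2% of 11754 genes were. The median change of the 6 was 1.18, 1.35 and 1.63 in these muscles, against 0.04, 0.02 and 0.02 over all genes tested. Every old library lay above every young one for 2 members in tibialis anterior (Adipoq and Cidec, 9.6% of genes) and 2 in soleus (Lep and Cidec, 2.46% of genes), and for 0 in gastrocnemius (6.85%) and 0 in diaphragm (1.06%). In bulk muscle, more cells of a type and more RNA per cell cannot be told apart.

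The diaphragm gave no called member at 27 months, where 3.27% of 12035 genes were called higher and 4.25% lower. Adipoq ranged from 16.6 to 204 CPM at 6 months (median 69.5) and from 34.8 to 143 CPM at 27 months (median 54.0). The difference was 0.01 ± 0.28, with a 95% interval of -0.54 to 0.56. The intervals of Lep (-0.44 to 1.06) and Plin1 (-0.84 to 0.33) reached past 1.5-fold. Plin1 differed by -0.26 ± 0.30, Cidec by 0.00 ± 0.28, Cfd by 0.03 ± 0.25, Lep by 0.31 ± 0.38 and Fabp4 by -0.00 ± 0.12 (adjusted p = 0.502 to 0.996). Without the libraries with Ucp1, the 11 other young libraries had 16.6 to 89.5 CPM of Adipoq (median 60.3), and the differences were 0.19 for Adipoq, 0.01 for Plin1, 0.27 for Cidec, 0.19 for Cfd, 0.46 for Lep and 0.12 for Fabp4, none of them called.

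**Figure D2:**
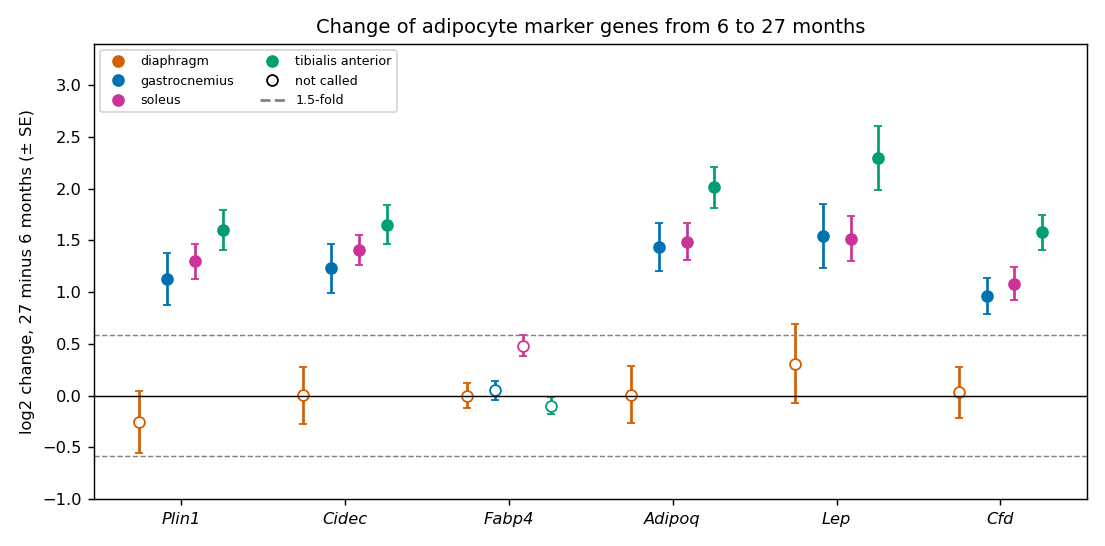
Log2 change from 6 to 27 months of each member (x axis) in each muscle (colours), with bars of 1 SE either side from the limma-voom fit of that muscle, filled points for called changes, open points for the rest and dashed lines at 1.5-fold. The limb muscles lie between 0.96 and 2.30 for 5 members, while Fabp4 in all muscles and all members in diaphragm lie inside the dashed lines.

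How far the change by 27 months differed from muscle to muscle was tested by interaction terms in the 28-group fit, over 6 pairs of muscles and 6 members. Of these 36 tests 14 were called, each of them a larger change in a limb muscle than in the diaphragm. The change in tibialis anterior exceeded that in diaphragm by 1.95 ± 0.36 for Adipoq (adjusted p = 9.20e-07), 1.81 ± 0.40 for Plin1 and 1.95 ± 0.64 for Lep (adjusted p = 0.00635), with 5 members called higher where 13.3% of genes were. In soleus the excess was 1.42 ± 0.29 for Adipoq (adjusted p = 1.33e-05), and 5 members were called where 6.3% of genes were. In gastrocnemius it was 1.39 ± 0.35 for Adipoq (adjusted p = 3.32e-04), and 4 members were called where 13.8% of genes were. Lep there missed the threshold (1.19 ± 0.62, adjusted p = 0.0968). Without the diaphragm libraries with Ucp1, 14 of 36 tests were again called.

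Between limb muscles 0 of 18 interaction tests were called, with 14.5% of genes called for soleus against gastrocnemius, 7.32% for tibialis anterior against gastrocnemius and 15.8% for tibialis anterior against soleus. Fabp4 came nearest, its change being smaller in tibialis anterior than in soleus by -0.57 ± 0.15 (adjusted p = 5.74e-04), just under the fold limit of 1.5. For Adipoq the same pair differed by 0.53 ± 0.36, with a 95% interval from -0.18 to 1.23.

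Soleus and diaphragm, between which Cidec alone had been called at 6 months, and lower in soleus, differed in most members at 27 months. Soleus was above diaphragm in 5 members, by 1.32 ± 0.20 for Adipoq (adjusted p = 1.06e-09), 1.41 ± 0.19 for Plin1, 1.66 ± 0.21 for Lep, 1.37 ± 0.17 for Cfd and 0.66 ± 0.17 for Cidec, where 12.2% of genes were higher. Gastrocnemius and tibialis anterior remained below diaphragm in 4 members each (15.7% and 15.1% of genes lower), but by less, Adipoq by -1.37 ± 0.22 and -1.33 ± 0.22. Cfd was not called between either of these muscles and diaphragm (0.42 ± 0.18 and -0.19 ± 0.19), although it had been lower in tibialis anterior at 6 months. Soleus was higher than gastrocnemius in 5 members (15.5% of genes) and tibialis anterior lower than soleus in 5 (15.9% of genes). Tibialis anterior was lower than gastrocnemius in Cfd (-0.61 ± 0.19) and Fabp4 (-0.64 ± 0.10), where 7.61% of genes were lower, and the other 4 members differed by 0.04 to 0.41 with none called. Counted over all pairs of muscles, 22 of 36 tests were called at 6 months and 25 of 36 at 27 months.

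The ages in between were each set against 6 months. All comparisons with 6 months share the same young libraries, and in each muscle 0 of 6 members were called at 9 months, where 0.108% of genes were called in diaphragm, 0.143% in gastrocnemius, 0.123% in soleus and 0.00851% in tibialis anterior. The earliest call was in tibialis anterior. Its Adipoq medians were 4.79, 8.15, 9.85, 14.8, 13.0, 13.8 and 22.3 CPM from 6 to 27 months, and Adipoq was the 1 member called at 12 months (0.83 ± 0.22, adjusted p = 0.0414, 0.145% of genes higher). The 12-month libraries there belong to another series of sample numbers than those of 6 months, so in this call series and age cannot be told apart. At 18 months 5 members were called higher (4.11% of genes), with 1.44 ± 0.20 for Adipoq and 1.70 ± 0.32 for Lep. At 21 months 3 were called (Adipoq, Cidec and Plin1, 5.5% of genes) and at 24 months 5 (10.9%).

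In soleus calls began at 24 months. Its Adipoq medians were 54.9, 56.2, 72.9, 76.3, 69.9, 113 and 146 CPM, and 0 members were called at 12, 18 or 21 months, where 0.23%, 1.66% and 1.41% of genes were higher. At 24 months 5 were called (3.87% of genes), from 0.63 ± 0.16 for Cfd to 1.18 ± 0.18 for Adipoq (adjusted p = 2.90e-07). In gastrocnemius the Adipoq medians were 7.84, 9.22, 9.83, 13.1, 12.8, 14.6 and 24.5 CPM. There 1 member was called at 18 months (Cfd, 0.61 ± 0.18, adjusted p = 0.0148, 3.63% of genes), 0 at 12 and 21 months (0.489% and 4.27%) and 2 at 24 months (Adipoq 0.89 ± 0.25 and Lep 1.05 ± 0.35, 11.4%). The diaphragm had 0 called at each age. There 0.532% of genes were called at 12 months, 2.25% at 18, 1.68% at 21 and 2.68% at 24 months. Its medians of Adipoq were 69.5, 57.3, 61.6, 49.6, 56.0, 93.6 and 54.0 CPM, so that 24 months was the highest group. Lep there was 1.03 ± 0.37 above 6 months at 24 months (adjusted p = 0.0571), and without the libraries with Ucp1 it was 1.17 ± 0.38 and called (adjusted p = 0.0331).

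The late part of life was covered by comparing 27 with 18 months. In soleus 5 members were higher at 27 months (7.43% of genes), with Lep at 1.44 ± 0.21 (adjusted p = 2.27e-08), and in gastrocnemius 4 were (7.99%), Adipoq by 0.82 ± 0.21. In tibialis anterior 1 member was called, Lep at 0.61 ± 0.22 (adjusted p = 0.0131, 12.4% of genes), and in diaphragm 0 (0.897%). Fitted as a slope over all 7 ages and called by adjusted p alone, Adipoq gained 0.06 log2 units per month in gastrocnemius and in soleus and 0.08 in tibialis anterior. The slope was positive and called for 5 members in gastrocnemius (36.3% of genes), 6 in soleus (25.6%), Fabp4 included at 0.02 per month (adjusted p = 5.73e-07), and 5 in tibialis anterior (38.2%). Fabp4 in tibialis anterior had a small negative slope of -0.0078 per month (adjusted p = 0.0259, 36.5% of genes lower), and 0 of 6 slopes were called in diaphragm (41.3% of genes in either direction). Calls were that common among slopes over all genes. Without the diaphragm libraries with Ucp1 no member slope was called there either. The lowest adjusted p was then 0.0638, for Fabp4 at 0.0087 per month.

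Libraries of the same age also differed from each other, and 5 of the members rose and fell together. With the mean of each age removed, log2 Plin1 correlated with log2 Adipoq across libraries at r = 0.957 in diaphragm (n = 83), 0.851 in gastrocnemius (n = 73), 0.922 in soleus (n = 84) and 0.905 in tibialis anterior (n = 85). Cidec gave 0.941, 0.847, 0.874 and 0.802 in the same order, Lep 0.841, 0.759, 0.795 and 0.708, and Cfd 0.880, 0.587, 0.829 and 0.776. Each of these 16 relations and those of Fabp4 in diaphragm and soleus had an adjusted p of 1.11e-05 over 20 relations, from the smallest p that 100000 permutations within age can give. Spearman's rho for the 4 genes ran from 0.571 to 0.953 with the same adjusted p, and r ranged from 0.503 to 0.950 without the 2 libraries farthest from the Adipoq median. The genes share each library's depth and scaling, which moves them together to some degree.

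Fabp4 followed Adipoq in some muscles only. Its r with Adipoq was 0.723 in diaphragm (rho 0.699) and 0.587 in soleus (rho 0.583), but 0.110 in gastrocnemius (rho 0.0400, adjusted p = 0.403 for r) and 0.208 in tibialis anterior (rho 0.219, adjusted p = 0.0757). Without the 2 libraries farthest from the Adipoq median it was 0.686 and 0.553 in the former pair and -0.0462 and 0.252 in the latter. Without the diaphragm libraries with Ucp1 it was 0.676 in diaphragm, and Plin1 stayed at 0.956. The ratio of Fabp4 to Adipoq in CPM fell in its median from 4.30 at 6 months to 0.930 at 27 months in tibialis anterior, from 3.95 to 1.37 in gastrocnemius and from 0.341 to 0.187 in soleus, and it was 0.454 and 0.572 in diaphragm. The ratio of Plin1 to Adipoq moved far less, from 0.505 to 0.355 in tibialis anterior and from 0.386 to 0.319 in soleus. These ratios were not tested and set 1 gene in relation to another without their lengths, so only their change between groups can be read.

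**Figure D3:**
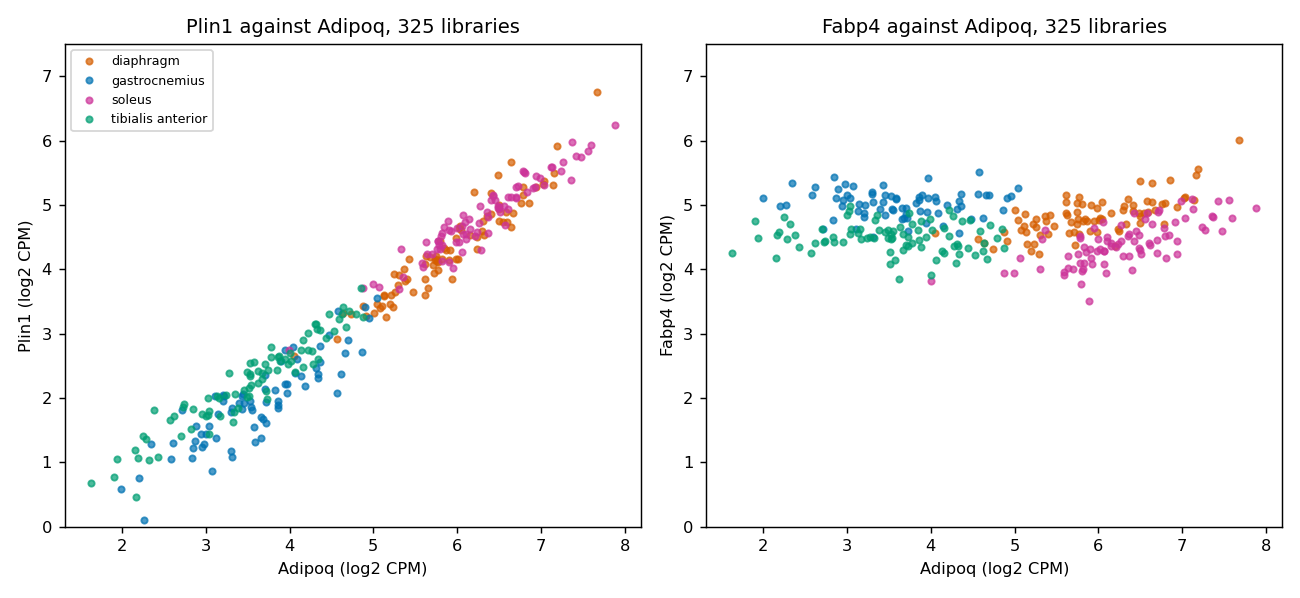
Plin1 (left) and Fabp4 (right) against Adipoq, 1 point per library of any age, coloured by muscle, both axes in log2 CPM and without removal of the age means. Plin1 climbs with Adipoq along the whole range and in every muscle, whereas Fabp4 lies in a flat band between muscles and climbs only within diaphragm and soleus, whose r with the age means removed was 0.723 and 0.587.

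The spread between animals was large for most members. Over the 7 ages the SD of log2 CPM within a group had a median of 0.653 for Adipoq in diaphragm and 0.436 in soleus, and of 0.816 and 0.507 for Lep. Fabp4 was the steadiest, with medians from 0.167 in tibialis anterior to 0.278 in diaphragm. By these medians the diaphragm had the widest groups for all 6 members.

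Among the 10401 genes ranked for how closely they followed the mean of the 6 members across the libraries of 1 age, averaged over the 4 muscles, the nearest were Cdo1 (mean r 0.864), a cysteine dioxygenase, Tusc5 (0.849), a membrane protein that aids glucose transporter traffic in fat cells, and S100b (0.785), a calcium-binding protein made by glia and fat cells. They were followed by Prkar2b, Ankef1, Slc7a10, Slc1a5, Pck1, Ces1d and Tshr (0.747 down to 0.685). Cdo1 rose at 27 months by 1.02 in gastrocnemius (adjusted p = 1.06e-06), 1.02 in soleus (adjusted p = 4.12e-12) and 1.34 in tibialis anterior (adjusted p = 4.26e-13), and differed by -0.20 in diaphragm (adjusted p = 0.512). Tusc5 rose by 1.08 in soleus and 0.78 in tibialis anterior and differed by 0.42 in gastrocnemius, below the fold limit. None of the 10 was called in diaphragm, where only 3.27% of all genes were called higher and 4.25% lower.

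Adipogenic regulators were listed to see whether the control genes of fat cells moved as the members did. Of 12 such factors 1 rose and 3 fell in gastrocnemius, 3 rose in soleus, and 2 rose and 3 fell in tibialis anterior, with 0 called in diaphragm. Over all genes tested, 15.1% were called higher and 921 of 11865 lower in gastrocnemius, and 9.21% and 704 of 12175 in soleus. In tibialis anterior 17.2% were higher and 1219 of 11754 lower, and in diaphragm 3.27% and 4.25%. These shares also apply to the counts of the lists that follow, and no list was tested as a set. Klf5, an early factor of fat cell formation, rose by 1.48 in gastrocnemius, 1.46 in soleus and 1.42 in tibialis anterior, and Cebpa, which holds fat cells in their mature state, rose by 1.20 in soleus and 1.44 in tibialis anterior. Srebf1, the regulator of lipid synthesis, fell in gastrocnemius (-0.99) and tibialis anterior (-0.74). Rxra, the partner of PPARG, also fell in gastrocnemius (-0.82) and tibialis anterior (-0.76). Pparg itself, the master regulator of fat cells, was not called in any muscle, with differences of -0.18 in diaphragm, 0.09 in gastrocnemius, 0.57 in soleus and 0.19 in tibialis anterior. In soleus (adjusted p = 4.72e-06) and tibialis anterior (adjusted p = 0.0466) it missed only the fold limit.

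Other adipokines moved unevenly. Angptl4, an inhibitor of lipoprotein lipase that muscle and liver also make, rose by 1.67 in gastrocnemius, 1.80 in soleus and 1.92 in tibialis anterior. Retn (resistin) fell by 0.75 in diaphragm. Nampt, an enzyme of NAD synthesis that is also secreted, fell in soleus (-0.74) and in tibialis anterior (-0.88). Among 4 adipokine receptors Cdh13, T-cadherin, which binds adiponectin, rose by 0.75 in gastrocnemius and 0.74 in tibialis anterior, and 0 were called in the other muscles.

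Genes of lipid handling that muscle fibres share with fat cells did not move as a body. Scd1, which desaturates fatty acids, had the largest rise of its list of 13 in each limb muscle, at 4.81 in gastrocnemius, 2.47 in soleus and 5.61 in tibialis anterior, while Lpl, lipoprotein lipase, fell in soleus (-1.36). Slc2a4, the insulin-responsive glucose transporter, fell in gastrocnemius (-0.63), Me1, malic enzyme, in tibialis anterior (-0.79) and Elovl6, a fatty acid elongase, in diaphragm (-0.83). Counts for uptake and lipogenesis were 3 up and 1 down in gastrocnemius, 3 and 2 in soleus, 4 and 1 in tibialis anterior and 0 and 1 in diaphragm. G0s2, the inhibitor of the first lipase of fat breakdown, fell in all 4 muscles, with changes of -1.08 in diaphragm, -2.57 in gastrocnemius, -2.25 in soleus and -2.29 in tibialis anterior. Pde3b, which ends the cyclic AMP signal for fat breakdown, rose by 1.02 in gastrocnemius and 0.87 in tibialis anterior. Adrb3, the fat cell adrenergic receptor, rose less surely in soleus, by 1.05 ± 0.44 (adjusted p = 0.0394). The 9 genes of lipolysis gave 0 up and 2 down in diaphragm, 1 and 2 of 8 tested in gastrocnemius, 2 and 2 of 9 in soleus and 1 and 2 of 8 in tibialis anterior.

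Among genes of triglyceride synthesis and the droplet, Cidea, a relative of Cidec that is abundant in brown fat, rose by 2.47 in gastrocnemius and 3.62 in tibialis anterior, and Dgat2, which makes triglyceride, by 0.86 in soleus and 0.59 in diaphragm. Lpin1, a phosphatidate phosphatase abundant in muscle, fell in gastrocnemius (-1.84) and tibialis anterior (-1.87), and Fitm2, which helps droplets bud, in soleus (-0.87) and diaphragm (-0.93). The counts were 1 up and 1 down of 11 in diaphragm, 2 and 3 of 11 in gastrocnemius, 2 and 2 of 12 in soleus and 2 and 2 of 11 in tibialis anterior. In the brown fat cell list 1 of 4 rose in gastrocnemius and 4 of 5 in tibialis anterior. In soleus 1 rose (Cidea, 0.82) and 2 fell of 5, and in diaphragm 0 of 4 were called. Slc27a2, a fatty acid transporter, had the larger fall in soleus, an imprecise -2.85 ± 1.12 (adjusted p = 0.0259). The whole list summed to only 6.37 to 23.6 CPM there at 6 months. Ucp1 reached at most 0.894 CPM in any limb muscle library.

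**Figure D4:**
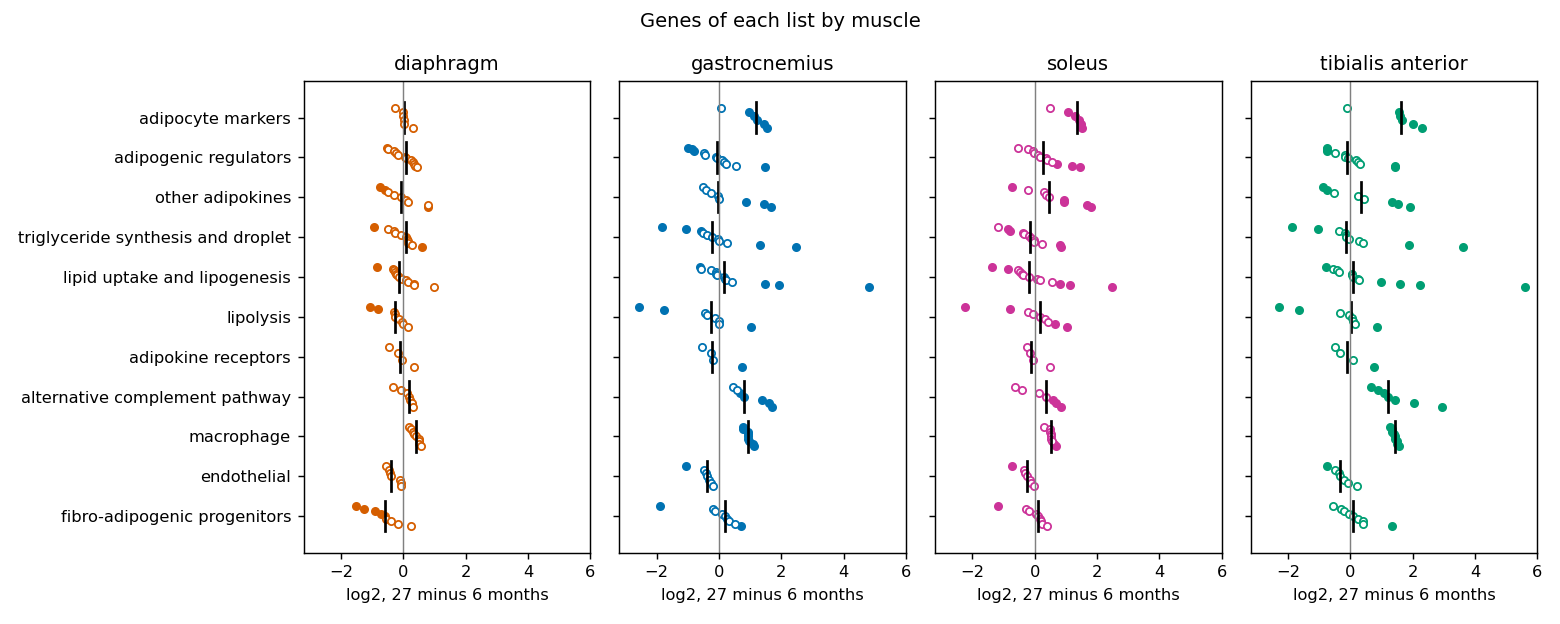
Log2 change from 6 to 27 months (x axis) of every tested gene of the members (top line) and of 10 other lists (lines below), 1 panel per muscle. Filled points passed the call rule, open points did not, and bars mark the list medians, which for the members are 0.01 in diaphragm, 1.18 in gastrocnemius, 1.35 in soleus and 1.63 in tibialis anterior.

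Markers of other cells that muscle can hold moved too, and their part in the members' changes was not tested. All 9 macrophage markers rose in gastrocnemius and in tibialis anterior, led by Mrc1, the mannose receptor, at 1.12 and by the complement gene C1qb at 1.56, and 2 of 9 rose in soleus (Cd163, a haemoglobin scavenger receptor, at 0.68, the larger of them) and 0 of 9 in diaphragm. Their summed level went from 76.9 to 127 CPM at 6 months to 156 to 346 CPM at 27 months in tibialis anterior and from 166 to 266 to 286 to 514 CPM in gastrocnemius. In soleus it went from 255 to 489 to 417 to 571 CPM and in diaphragm from 213 to 417 to 334 to 732 CPM. Cfd's own pathway moved in part, with 7 of 7 genes of the alternative complement pathway higher in tibialis anterior (C3 by 2.93), 5 of 7 in gastrocnemius (C3 by 1.69), 3 of 7 in soleus (Cfb by 0.84) and 0 of 7 in diaphragm.

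Of 7 endothelial markers 1 was called in each limb muscle, Kdr, a VEGF receptor, which fell in gastrocnemius (-1.06), soleus (-0.74) and tibialis anterior (-0.77). The summed endothelial level was 356 to 427 CPM at 6 months and 231 to 318 CPM at 27 months in gastrocnemius, the groups not overlapping, and 437 to 528 and 322 to 500 CPM in tibialis anterior. In soleus it was 445 to 529 and 329 to 455 CPM and in diaphragm 592 to 703 and 499 to 597 CPM. Fibro-adipogenic progenitors, the stromal cells from which fat cells of muscle arise, gave 5 of 9 markers lower in diaphragm (Col1a1, a collagen, at -1.51), 1 up and 1 down in gastrocnemius (Pi16 at 0.71 and Col1a1 at -1.89), 1 down in soleus (Col1a1 at -1.17) and 1 up in tibialis anterior (Pi16 at 1.32). Their defining receptor Pdgfra was not called in any muscle (-0.38 to 0.41).

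Fibre, nerve and blood markers complete the lists. Among 6 fibre genes Myh4 rose by 1.37 in diaphragm and by 3.08 in soleus, from a low level there, and fell in gastrocnemius (-1.27) and tibialis anterior (-1.497), and Myh1, a fast isoform, rose by 3.22 in soleus. Summed fibre genes ran from 203600 to 229223 CPM at 6 months and from 86120 to 199299 CPM at 27 months in tibialis anterior, and from 186015 to 242358 and from 99452 to 183965 CPM in gastrocnemius, without overlap in either muscle. In soleus they ran from 85590 to 102425 CPM (median 93831) and from 40957 to 102339 CPM (median 71060), and in diaphragm from 86574 to 115005 and from 87365 to 126824 CPM. Among Schwann cell genes Cdh19 rose by 0.65 in gastrocnemius and Sox10 by 0.75 in tibialis anterior, and Slc4a1, the red cell anion exchanger, rose by 0.64 in soleus and 0.90 in tibialis anterior as the 1 of 4 red cell genes called. The mesothelial list marks the lining that covers the diaphragm. It summed to 10.6 to 84.7 CPM in diaphragm at 6 months and to 4.77 to 78.8 CPM at 27 months, against at most 1.65 CPM in limb muscles of these ages, and in soleus Msln fell by 1.67 at that low level.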

How the data were processed

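The deposited files hold raw counts of fragments per gene, 1 file per library, which the authors made from strand-specific, ribosome-depleted total RNA sequenced in read pairs. Per the study's methods, reads were aligned to the rat B6.0 reference with the ArrayStudio software and counted on an in-house gene model built from RefSeq; the software's version is not given in the sources used here. The counts were used as deposited, with 494 symbols listed on several of the 17870 lines summed, which left 17315 symbols. Totals of 17.6 to 85.3 M fragments limit the precision of Lep most. No 2 libraries of a group agreed within sampling noise.

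Each muscle was fitted with limma-voom (limma 3.58.1, edgeR 4.0.16, R 4.3.3), with the 7 ages as groups, TMM scaling and edgeR's filterByExpr (minimum count 10, total 15). Every adjusted p from limma is two-sided and Benjamini-Hochberg adjusted over all genes of the contrast, and a call also needs a change over 1.5-fold, except for slopes on age. Muscles were compared in 1 fit of all 28 groups. Correlations used log2 CPM (prior count 0.5) with age means removed and 100000 permutations within age. Alternatives were edgeR's quasi-likelihood test, DESeq2 1.42.0, other scalings, filters, thresholds and weights, a replicate block, and leaving out each library. The scripts were tested on simulated data with known changes.

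Named genes were the 6 members, the largest called rise and fall in each muscle from each of 15 other lists of adipocyte, lipid and cell type genes, the 10 genes most like the members, and Myh7 and Myh4. Pparg and Pdgfra were named in addition, after their values were seen, as the defining genes of their lists. Members and lists were chosen with earlier results of these data known. Some results of the lists of other adipokines and of Schwann cell genes, their counts included, are not reported here.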

Additional observations from a re-analysis of the deposited data

Results flagged for a closer look

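In 14 tests the change of a member from 6 to 27 months differed between muscles by an interaction term (limma with Benjamini-Hochberg adjustment), each time with the larger change in a limb muscle. Gastrocnemius exceeded diaphragm by 1.39 for Adipoq, 0.88 for Cfd, 1.20 for Cidec and 1.36 for Plin1 on the log2 scale. Soleus exceeded diaphragm by 1.42 for Adipoq, 0.995 for Cfd, 1.35 for Cidec, 1.16 for Lep and 1.503 for Plin1. Tibialis anterior exceeded diaphragm by 1.95 for Adipoq, 1.496 for Cfd, 1.60 for Cidec, 1.95 for Lep and 1.81 for Plin1. Gastrocnemius carries sample numbers of a series that no other muscle shares, so in each comparison with it muscle and series cannot be told apart. Of 18 sets of 9 to 10 values, the 6 members in the 3 smallest gastrocnemius groups, 0 held a single sample far from the rest by Dixon's criterion on log2 CPM, and larger groups were not tested.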

How the results depend on the processing

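The 5 called rises in each limb muscle from 6 to 27 months and the 0 calls in diaphragm kept their counts in 93 fits that each left out 1 library. For gastrocnemius the count was 3 under Bonferroni adjustment, which is the adjustment named in the study's methods. Plin1 (limma, adjusted p = 0.301) and Lep (adjusted p = 0.0575) missed it. The count there was 4 under a 2-fold threshold, which Cfd missed. For soleus it was 6 with total-count scaling, where Fabp4 (0.63) was called as well. For 27 against 18 months the counts were less stable. Gastrocnemius (4 called) had 0 under a 2-fold threshold and 0 under Bonferroni, and soleus (5 called) had 1 under 2-fold. Tibialis anterior (1 called) had 0 under 2-fold, Bonferroni, DESeq2 and edgeR, 2 with the stricter filter, 4 with sample quality weights and 5 with total-count scaling. The 14 called interactions became 5 under Bonferroni. Beyond the settings that make the criterion stricter, the cause was not tested.

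Total-count scaling moved the median of all genes at 27 against 6 months to 0.32 in gastrocnemius, 0.16 in soleus and 0.34 in tibialis anterior (0.04 in diaphragm), and the share of higher genes among those called from 66.0% to 90.0%, from 61.4% to 77.7% and from 62.4% to 89.1% (43.4% to 51.0% in diaphragm). It also reversed Fabp4 at 27 against 6 months to 0.0393 in diaphragm and 0.23 in tibialis anterior, Fabp4 of gastrocnemius minus diaphragm to -0.33 at 6 and -0.0266 at 27 months, Fabp4 of tibialis anterior minus soleus at 6 months to -0.21, and the interactions of Fabp4 (tibialis anterior minus diaphragm, 0.19), Adipoq (-0.096) and Cfd (-0.0135, both soleus minus gastrocnemius).

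All other reversals concerned values near 0 that were not called. In diaphragm at 27 against 6 months Adipoq came to -0.14 with DESeq2 and -0.15 with edgeR, Cfd to -0.13 and -0.14, and Cidec to -0.32 and -0.33. Fabp4 came to 0.00774 with RLE size factors, 0.00639 with no filter, 0.00706 with the stricter filter, 0.0114 without the other library series, 0.0839 with quality weights and 0.12 without the libraries with Ucp1, where Plin1 came to 0.00529. Also without these, soleus minus diaphragm at 6 months came to 0.0725 for Adipoq and 0.17 for Plin1, and the Fabp4 interaction of gastrocnemius minus diaphragm to -0.11. With edgeR the diaphragm slopes were -0.00558 for Cidec and -0.00783 for Plin1. Fabp4 in gastrocnemius was -0.0656 with quality weights, and at 27 against 18 months in tibialis anterior -0.00383 with DESeq2 and -0.00737 with edgeR. Leaving out 1 library gave, in diaphragm, -0.16 to 0.20 for Adipoq, -0.15 to 0.20 for Cfd, -0.21 to 0.27 for Cidec, -0.0519 to 0.13 for Fabp4 and -0.46 to 0.0141 for Plin1, and -0.0293 to 0.11 for Fabp4 in gastrocnemius.

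Replicate numbers were not taken to pair the samples, because not every same-numbered pair correlated above 0.1. Of 468 such pairs 260 did and 35.7% were a best match, with a median r of 0.147 against -0.0153 for other numbers, a hint from the data and not from the design. The matches were uneven. Between soleus and tibialis anterior at 6 months 10 of 12 numbers were a best match, and between gastrocnemius and soleus at 12 months 0 of 11 were. The tests between muscles left any such pairing out. With the number as a block, 5, 5 and 5 members were called at 27 months in the limb muscles and 0 in diaphragm, and 4, 5, 1 and 0 against 18 months in gastrocnemius, soleus, tibialis anterior and diaphragm. Within a muscle a number stands for different rats at different ages, so these counts cannot bear on pairing. Tests between muscles called were 23 at 6 months, 25 at 27 months and 15 interactions. Under the block Cfd in diaphragm came to -0.0134 against 6 and -0.00899 against 18 months, Cidec to -0.0716, the Plin1 slope to -7.86e-04 and the Adipoq interaction of soleus minus gastrocnemius to -0.0565.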

Other observations

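Fabp4 was set against the mean of the 7 endothelial markers and of the 9 macrophage markers after its values had been seen, across libraries with age means removed, giving 16 relations with Adipoq included. Pearson's r of Fabp4 with the endothelial list was 0.368 in diaphragm (rho 0.287, adjusted permutation p = 0.00507 for r), 0.361 in gastrocnemius (rho 0.297, 0.00736), 0.369 in soleus (rho 0.350, 0.00507) and 0.105 in tibialis anterior (rho 0.130, 0.433). Without the 2 farthest libraries it was 0.325, 0.288, 0.309 and 0.0815. For Adipoq the same relation gave r of 0.108 (rho 0.0330), 0.122 (rho 0.102), 0.293 (rho 0.264) and 0.0669 (rho 0.0925), with adjusted permutation p of 0.433, 0.433, 0.0245 and 0.584 for r. The macrophage list went with Adipoq in gastrocnemius (r = 0.385, rho 0.340, adjusted permutation p = 0.00507, 0.304 without 2 libraries) and against Fabp4 there (r = -0.345, rho -0.345, adjusted permutation p = 0.00736, -0.330 without 2 libraries). In diaphragm, soleus and tibialis anterior the macrophage list gave r of 0.245, 0.165 and 0.190 with Adipoq and 0.00402, 0.0290 and 0.141 with Fabp4.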
